A study of Mus musculus with 38 samples.

Results

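Open chromatin in wild-type (WT) Tcf21 lineage cells of mouse fat was compared between animals after a long high-fat diet and young animals, from ATAC-seq peak lists. The 5 lists used, of 9 ATAC-seq lists and 38 libraries in the series, were 2 of cells after 12 weeks of high-fat diet (WT 12W HFD) and 3 of cells at 3 weeks of age (WT 3W). They were chosen by their titles alone, and every deposited peak was used. Where peaks of the 5 lists shared at least 1 base they were merged, which gave 112514 regions. A region held by both WT 12W HFD lists and by no WT 3W list is called 12W-only here (12465 regions), and one held by all 3 WT 3W lists and by neither WT 12W HFD list is called 3W-only (821 regions).

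All libraries came from adipose tissue, and series text places the cells in visceral fat. WT 12W HFD mice ate a Teklad high-fat diet that began when they were 6 weeks old, and WT 3W mice ate a regular LabDiet chow. Each library began with 5000 cells sorted by flow cytometry as Tcf21 lineage cells. Tamoxifen, which switches on the MerCreMer form of Cre recombinase, is listed for all samples at 75 mg/kg a day by gavage for adults and 100 µg a day for neonates. The dose that applied to a given library is not stated, nor are strain, sex or pooling. Age, diet and perhaps the age at dosing differ together between the groups and cannot be told apart. RNA-seq of the same cell type, 5 WT 12W HFD and 7 WT 3W libraries separate from the ATAC-seq ones, served as a readout that the peak lists did not use.

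Tcf21 is a basic helix-loop-helix transcription factor of mesenchymal progenitors, which in fat include the cells that can become adipocytes. ATAC-seq uses the Tn5 transposase to insert adapters where DNA is not covered by nucleosomes, so that promoters and enhancers in use appear as peaks. Promoters lie at transcription start sites and are often open in many cell types, while distal enhancers tend to be open in a cell-type-specific way.

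The promoters of 5 genes show the sequence that lay under such peaks. They are RefSeq windows of build GRCm38.p6, running from 250 bases before a transcription start site to 50 bases after it, 5′ to 3′ on the gene's strand. Capitals mark each match to one of 14 motifs searched on both strands, and positions count from the start site as 0. Mmp3, Cxcl9 and Ankrd1 are shown because their windows lay wholly inside 12W-only regions and their RNA was higher in WT 12W HFD cells. Lepr and Nlgn1 are shown because the windows printed lay inside 3W-only regions and their RNA was lower in WT 12W HFD cells. Another listed Lepr window, chr4:101717157-101717456, was not wholly inside a region and had NFI at -149 and NF-kB at -214.
Mmp3, chr9:7445572-7445871, plus strand, AP-1 at -46 and NFI at -192: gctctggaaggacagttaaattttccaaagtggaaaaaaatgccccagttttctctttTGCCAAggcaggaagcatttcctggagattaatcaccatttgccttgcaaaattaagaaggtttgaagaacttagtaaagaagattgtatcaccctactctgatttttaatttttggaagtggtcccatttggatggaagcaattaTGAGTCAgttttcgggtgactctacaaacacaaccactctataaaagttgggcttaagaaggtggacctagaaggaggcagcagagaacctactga
Cxcl9, chr5:92328030-92328329, minus strand, NF-kB at -129 and -42, RUNX at -106, E-box CAGCTG at -81, AP-1 at 31: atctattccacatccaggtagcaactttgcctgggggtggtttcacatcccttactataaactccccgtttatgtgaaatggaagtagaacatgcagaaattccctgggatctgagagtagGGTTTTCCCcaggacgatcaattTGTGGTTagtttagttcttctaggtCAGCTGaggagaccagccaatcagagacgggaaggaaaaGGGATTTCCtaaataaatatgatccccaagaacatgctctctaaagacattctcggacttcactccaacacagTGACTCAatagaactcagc
Ankrd1, chr19:36119795-36120094, minus strand, TEAD at -210 and -123, NFI at -217, NF-kB at -145: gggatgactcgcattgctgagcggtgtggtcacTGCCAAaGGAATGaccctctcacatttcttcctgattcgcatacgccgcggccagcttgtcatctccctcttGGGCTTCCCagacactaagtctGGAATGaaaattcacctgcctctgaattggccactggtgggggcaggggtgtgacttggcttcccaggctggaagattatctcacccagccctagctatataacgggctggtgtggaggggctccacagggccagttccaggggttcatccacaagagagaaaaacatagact
Lepr, chr4:101717656-101717955, plus strand, no match: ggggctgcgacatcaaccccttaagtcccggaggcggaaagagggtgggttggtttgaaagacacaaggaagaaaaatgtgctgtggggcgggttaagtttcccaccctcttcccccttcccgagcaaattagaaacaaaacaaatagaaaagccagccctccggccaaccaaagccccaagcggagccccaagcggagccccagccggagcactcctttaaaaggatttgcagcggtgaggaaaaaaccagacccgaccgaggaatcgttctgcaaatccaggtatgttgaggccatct
Nlgn1, chr3:26331860-26332159, minus strand, CTCF at 31: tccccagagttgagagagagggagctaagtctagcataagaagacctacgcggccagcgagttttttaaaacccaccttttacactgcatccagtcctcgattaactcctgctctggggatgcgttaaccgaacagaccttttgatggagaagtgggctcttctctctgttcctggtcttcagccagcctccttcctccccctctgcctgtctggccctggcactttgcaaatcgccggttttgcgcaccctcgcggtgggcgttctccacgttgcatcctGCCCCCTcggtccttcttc

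The letters searched were AP-1 TGANTCA, C/EBP TTGCNNCAA, ETS CCGGAAG, PU.1 GAGGAAGT, TEAD GGAATG, E-boxes CAGCTG and CATCTG, EBF CCCNNGGGA, NFI TTGGCA, the GATA-factor letters AGATAAG, RUNX TGTGGTT, GRE ACANNNTGT, NF-kB GGGANNNCC and CTCF AGGGGGC. The AP-1 letters stood in 18.2% of the 264 windows wholly inside a 12W-only region, against 5.77% of the 52 inside a 3W-only region, 5.03% of the 15187 inside a region of all 5 lists and 7.81% of all 32851 windows. The PU.1 letters stood in 9.47%, 3.85%, 2.64% and 3.2% of the same sets, and the RUNX letters in 9.85%, 3.85%, 3.42% and 5.27%. In the 16055 windows not wholly inside a region, the AP-1, PU.1 and RUNX letters stood in 10.1%, 3.59% and 6.82%. AP-1 is the Fos and Jun family of dimers, PU.1 (Spi1) is a factor of myeloid cells and RUNX factors act in blood and connective tissue. CTCF letters ran the other way, at 4.55% of 12W-only windows against 25% of 3W-only windows, 16.7% of windows of all 5 lists and 10.6% of all windows, with 4.94% of windows not wholly inside a region. The windows differ in base composition, with a median GC content of 49.8% in 12W-only windows, 58.8% in 3W-only windows, 61.3% in windows of all 5 lists and 52.7% over all windows. Windows not wholly inside a region had a median of 47%, the nearest to the 12W-only windows. AP-1, PU.1, RUNX and CTCF were picked from the motifs listed, and no share was tested. TEAD letters stood in 12.9% of 12W-only windows against 14.7% of all windows, and NF-kB letters in 18.9% against 18.6%. GRE letters stood in 9.85% of 12W-only windows against 6.85% of all windows. The GATA-factor letters stood in 9.62% of 3W-only windows against 3.04% of all windows. Shares of the remaining motifs are not given here. The part of base composition in the motif shares was not tested, and a match in letters is not a bound site.

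The 2 WT 12W HFD lists held 93314 and 82580 peaks, and the 3 WT 3W lists 77862, 55990 and 58675. Both WT 12W HFD lists were longer than every WT 3W list. The mean was 87950 ± 7590 peaks in WT 12W HFD lists and 64180 ± 11930 in WT 3W lists (SD, n = 2 and 3), and the exact two-sided permutation test gave p = 0.2, where 0.1 is the smallest p that 2 against 3 libraries allow. The peaks covered 122.1 and 146.3 Mb in WT 12W HFD lists and 111.9, 84.3 and 75.6 Mb in WT 3W lists (exact permutation p = 0.2). Read depth is not in the files, so how far list length follows sequencing depth was not tested. WT 3W replicates 2 and 3 also stand apart by the first letter of their peak names, B, where the other 3 of these lists have A. The meaning of that letter is not stated. To remove the difference in length, each list was also held to its 55990 strongest peaks by the authors' −log10 p, the length of the shortest list.

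More regions were 12W-only than 3W-only, both with all peaks and at equal list length, but the gap was smaller at equal length. With all peaks, 12465 of 112514 regions (11.1%) were 12W-only and 821 (0.73%) were 3W-only. With equal list length there were 79627 regions, of which 4688 (5.89%) were 12W-only and 2188 (2.75%) were 3W-only. A total of 3502 regions were 12W-only and 587 were 3W-only under both ways of counting. A further 37934 regions (33.7%) were in all 5 lists, and 33148 at equal length. A 3W-only region has to be in 3 lists and a 12W-only region in 2, so the counts are not on one footing. Among the A lists alone (WT 12W HFD 1 and 2 and WT 3W 1), 15879 regions were 12W-only and 12507 3W-only, while at equal length there were 8480 and 9960, so that the 3W-only count was then the larger one. Without WT 12W HFD replicate 1, without WT 12W HFD replicate 2 and without WT 3W replicate 1, the 12W-only count with all peaks was 22271, 24463 and 18819. The 3W-only count with all peaks was 1827 without WT 12W HFD replicate 1, 2282 without WT 3W replicate 2 and 1597 without WT 3W replicate 3. At equal length, the 12W-only count was 9851 without WT 12W HFD replicate 1 and 7273 without WT 12W HFD replicate 2. The 3W-only count at equal length was 3516 without WT 12W HFD replicate 1, and 3333, 3988 and 3302 without WT 3W replicates 1, 2 and 3 in turn. Presence in 2 against 3 lists cannot pass a test for a single region.

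**Figure D1:**
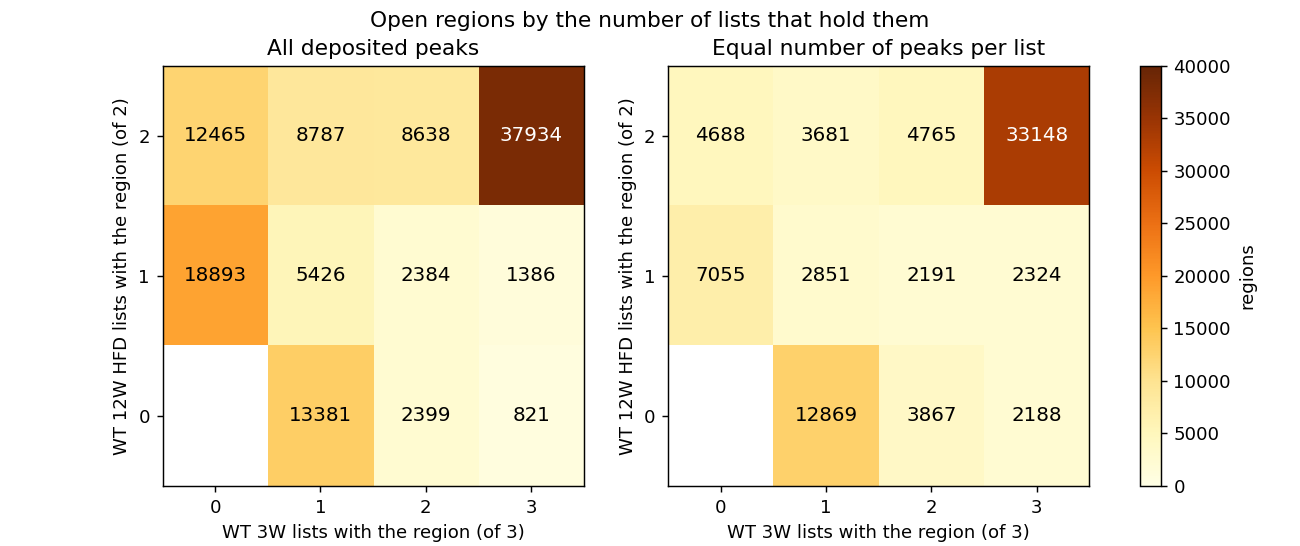
Heat map of the number of regions by how many WT 12W HFD lists (rows, of 2) and WT 3W lists (columns, of 3) hold them, for all deposited peaks (left panel) and for 55990 peaks per list (right panel). The 12W-only corner holds 12465 and 4688 regions, the 3W-only corner 821 and 2188, and the corner of all 5 lists 37934 and 33148.

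12W-only and 3W-only regions were narrower and lay farther from start sites than regions in all 5 lists. The median width was 1105 bases for 12W-only regions, 1235 for 3W-only regions and 2388 for regions in all 5 lists, against 1235 over all regions. A region spans every peak merged into it, so one built from more lists tends to be wider by construction. A wider region also meets a start-site window more readily, and the part of width in the shares below was not tested. Only 4.13% of 12W-only regions and 8.48% of 3W-only regions overlapped a window of 1 kb either side of a start site, compared with 31.6% of regions in all 5 lists and 13.6% of all regions. The median distance to a start site was 29.3 kb for 12W-only, 22.6 kb for 3W-only and 12.4 kb for regions in all 5 lists, against 21.1 kb over all regions. Within their own lists, 12W-only regions had a median rank at 68.1% and 66.1% of the list length, counted from the strongest peak, and 3W-only regions at 54.5%, 75.1% and 70.1%. These ranks rest on the authors' peak values, and a weak peak is one that a list with a higher threshold can miss. Over whole lists, 14.1% and 15.1% of WT 12W HFD summits fell within 1 kb of a start site, against 16.4%, 20.9% and 20.4% in WT 3W lists. At equal list length the shares were 21% and 20.4% against 21.5%, 20.9% and 21.3% (exact permutation p = 0.3, difference -0.52 percentage points).

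The 4 ATAC-seq lists that took no part in sorting the regions were searched for peaks at the same places. They are 2 of WT cells after 1 week of high-fat diet (WT 1W HFD) and 2 titled KO at 3 weeks (KO 3W), whose genotype field nevertheless reads WT. The titles pair KO 3W 1 with WT 3W 1 and KO 3W 2 with WT 3W 3, and the letters of the peak names are the same within each pair (A and B). The KO 3W lists are thus tied by their labels and age to lists that defined the 3W-only set, and the part of this in their shares was not tested. Of the 12W-only regions, 59.9% and 48.7% had a peak in the WT 1W HFD lists, and 40.5% and 24.1% in the KO 3W lists. Of the 3W-only regions, 66.5% and 42.3% had a peak in the WT 1W HFD lists, and 92.5% and 84.8% in the KO 3W lists. Over all regions the shares were 71.4%, 62.8%, 68.2% and 58.1%, in the same order of lists. In both KO 3W lists the 3W-only share lay above the 12W-only share, and the same order held for the 587 and 3502 regions kept under both ways of counting (95.6% and 87.9% against 55.9% and 30.8%). In the WT 1W HFD lists the 3W-only share was above the 12W-only share in replicate 1 and below it in replicate 2. Neither KO 3W list held 6227 of the 12W-only regions (50%), while 29 of the 3W-only regions (3.53%) were in neither. These regions were sorted on WT lists with thresholds of their own, and no test was made of these shares.

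**Figure D2:**
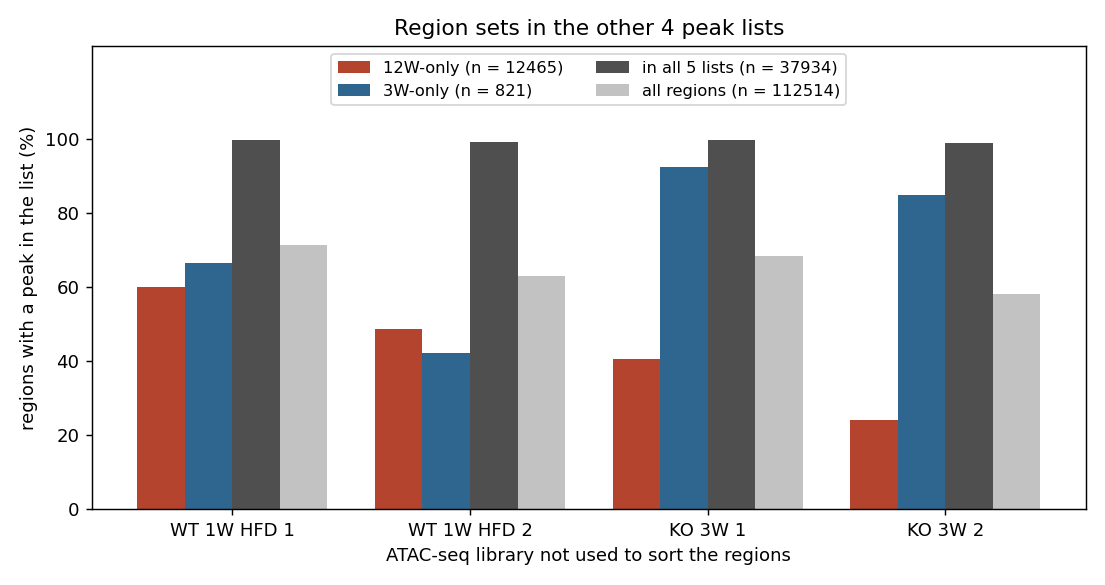
Bars give the percent of regions with a peak in each of 4 lists not used to sort them, for 12W-only, 3W-only, regions in all 5 lists and all regions. 3W-only regions reach 92.5% and 84.8% in the KO 3W lists, where 12W-only regions reach 40.5% and 24.1%.

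Genes near 12W-only regions were more often higher in WT 12W HFD RNA than all genes were, and genes near 3W-only regions more often lower; the difference in shares itself was not tested. RNA was tested with limma on log2(TPM + 1), where TPM is RNA abundance scaled to a fixed total per library, and calls are at an adjusted p below 0.05 (Benjamini-Hochberg over 15659 genes). Over all genes tested, 1244 (7.94%) were higher and 976 (6.23%) lower in WT 12W HFD cells. Of the 11421 with a start site in the RefSeq table, 7.78% were higher and 6.47% lower. A region was linked to a gene when it overlapped 1 kb either side of its start site, or else to the nearest start site within 50 kb. The 12W-only regions were linked to 5544 genes (20.5% of genes in the table), of which 2566 were tested for RNA (22.5% of tested genes with a start site): 406 (15.8%) were higher and 117 (4.56%) lower. The 3W-only regions were linked to 529 genes (1.96%), of which 243 were tested (2.13% of tested genes with a start site): 6 (2.47%) were higher and 49 (20.2%) lower. Median log2 changes were 0.10 for the genes of 12W-only regions and -0.35 for those of 3W-only regions, against -0.04 over all 11421. Whether libraries of 1 group came from separate animals is not stated, so p-values measure the spread between libraries. In bulk RNA, fewer cells of a type and less RNA per cell cannot be told apart.

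The share of genes with higher RNA increased with the number of 12W-only regions linked to them. Among genes with no such region, 5.46% were higher and 7.02% lower (n = 8855). With 1 region 13.3% were higher and 5.23% lower (n = 1817), and with 2 regions 19.5% and 3.46% (n = 492). With 3 to 4 regions 24.3% were higher and 2.29% lower (n = 218), and with 5 to 8 regions 16 of 39 were higher and 0 lower. Genes with more 12W-only regions also tended to have more regions in all 5 lists, with a median of 1 such region for the first set and 3 for the last. For 3W-only regions, 43 of 229 genes with 1 region were lower (18.8%), and 6 of 14 with 2 to 4. For genes linked at their promoter, 95 of 171 were higher and 0 lower for 12W-only regions (55.6%; limma, with 3 lower at an unadjusted p below 0.05), and 11 of 30 were lower and 1 higher for 3W-only regions (36.7%), while 5.37% of genes with a promoter open in all 5 lists were higher and 6.62% lower. A gene could enter the RNA test through its level in 1 group alone. Among genes that reached 1 TPM in 2 or more libraries in both groups, 46 of 95 with a 12W-only promoter region and 3 of 11 with a 3W-only one were called in those directions, beside 6.15% higher and 6.2% lower of all 9417 such genes.

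**Figure D3:**
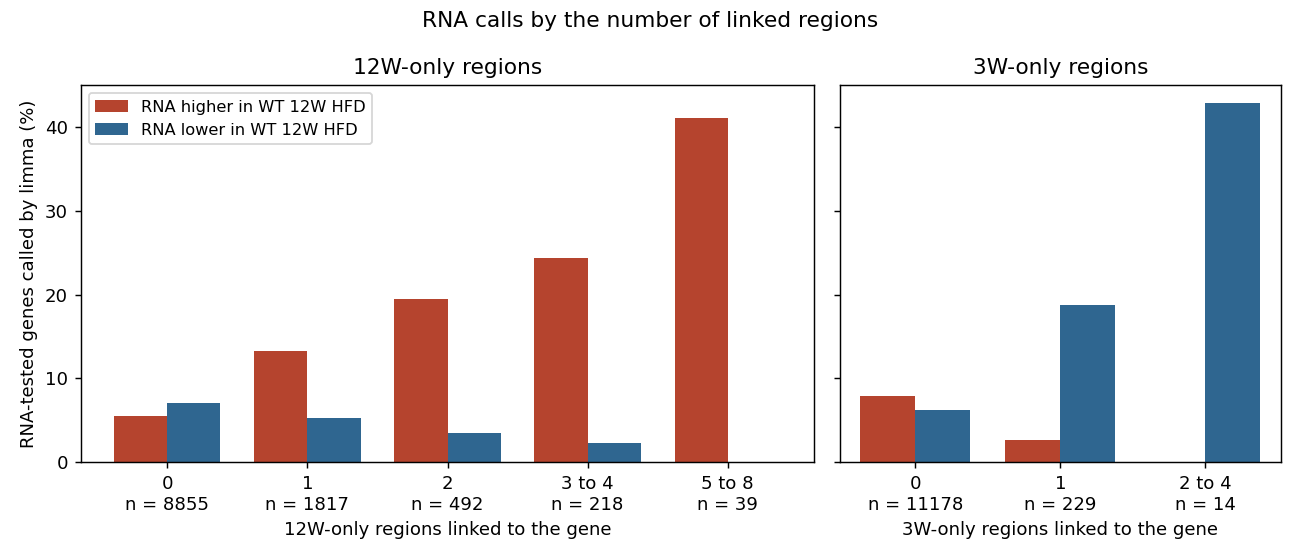
Bars give the percent of RNA-tested genes called higher or lower in WT 12W HFD than in WT 3W cells by limma, by how many 12W-only (left panel) or 3W-only (right panel) regions are linked to the gene; n is the number of genes. The share called higher goes up from 5.46% with 0 12W-only regions to 41% with 5 to 8, and the last bar pair on the right holds only 14 genes.

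Among the strongest 12W-only regions, by the worse of their ranks in the 2 lists, were ones near Cx3cl1, F7, Fbln7, Nceh1 and Col8a1, whose RNA was higher in WT 12W HFD cells. The region near Cx3cl1 (chr8:94784333-94790211), a chemokine held on the cell membrane, lay 15.1 kb from the start site and inside the predicted gene Gm51543. Its authors' fold was 32.45 and 43.1 in the WT 12W HFD lists. Peaks there had a fold of 13.51 and 8.17 in the WT 1W HFD lists and of 6.27 and 5.29 in the KO 3W lists. Cx3cl1 RNA was 25.3, 5.35, 5.77, 23.65 and 16.85 TPM in the WT 12W HFD libraries, against 0.03 to 3.02 TPM (median 0.81) in WT 3W libraries. The groups did not overlap, and the log2 change was 2.96 ± 0.49 (SE; limma adjusted p = 5.6e-05). Fbln7, a matrix protein of the fibulin family, had 117.01, 170.45, 184.63, 215.75 and 203.18 TPM in WT 12W HFD libraries, against 10.07 to 59.73 TPM (median 24.37) in WT 3W libraries, also without overlap (log2 change 2.63 ± 0.43; limma adjusted p = 4.9e-05). F7, coagulation factor VII, had 14.16, 5.28, 12, 26.78 and 8.61 TPM in WT 12W HFD libraries and was listed at 0 in 6 of 7 WT 3W libraries, with 0.06 TPM in the other one. Its region at chr8:13027391-13031390 lay 3.36 kb from the start site and inside the gene. Nceh1, a cholesteryl ester hydrolase, was higher by 1.79 ± 0.54 on the log2 scale (limma adjusted p = 0.022). The other genes chosen by rank were Ces1a, which was higher at a low level (0 to 4.87 TPM in WT 12W HFD libraries and 0 in every WT 3W library), Dhx34, Dnajc13, Atg10 and Cytl1, which did not pass the test, and Scel and Slc6a5, too low to be tested.

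Col8a1, a collagen chain of short-chain networks, was the one gene both among the strongest regions and among the 10 largest RNA changes of genes with a 12W-only region under both ways of counting. It had 3 12W-only regions 31.6 to 44.3 kb from its start site, inside the gene. The strongest of the 3 linked regions, chr16:57713882-57716259, carried the authors' fold enrichment of 20.6 and 17.6 in the WT 12W HFD lists. It had no peak in the 3 WT 3W lists or the KO 3W lists, and a fold of 4.42 in 1 WT 1W HFD list. Col8a1 RNA was 46.99, 32.05, 26.1, 61.68 and 72.91 TPM in WT 12W HFD libraries, against 0.57 to 3.17 TPM (median 1.13) in WT 3W libraries. Every WT 12W HFD library lay above every WT 3W one (log2 change 4.40 ± 0.52; limma adjusted p = 3.3e-07). Its promoter was open in all 5 lists.

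The largest number of 12W-only regions for 1 gene was 8, at Runx1 and Noct. Runx1, a transcription factor of blood and connective tissue, had 18.16, 20.88, 23.47, 17.5 and 14.23 TPM in WT 12W HFD libraries, against 1.85 to 3.88 TPM (median 2.34) in WT 3W libraries. The groups did not overlap (log2 change 2.45 ± 0.29; limma adjusted p = 3.4e-07). Noct, a circadian phosphatase also called nocturnin, had 18.53, 16.62, 11.73, 11.98 and 12.9 TPM in WT 12W HFD libraries, against 0.2 to 6.81 TPM (median 4.02) in WT 3W libraries (log2 change 1.84 ± 0.42; limma adjusted p = 0.0027). Of 4 genes with 7 such regions, Il16, a cytokine, was higher (log2 change 1.30 ± 0.44; limma adjusted p = 0.045), and Frmd4a, Pde1a and Sgms1 did not pass the test.

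**Figure D4:**
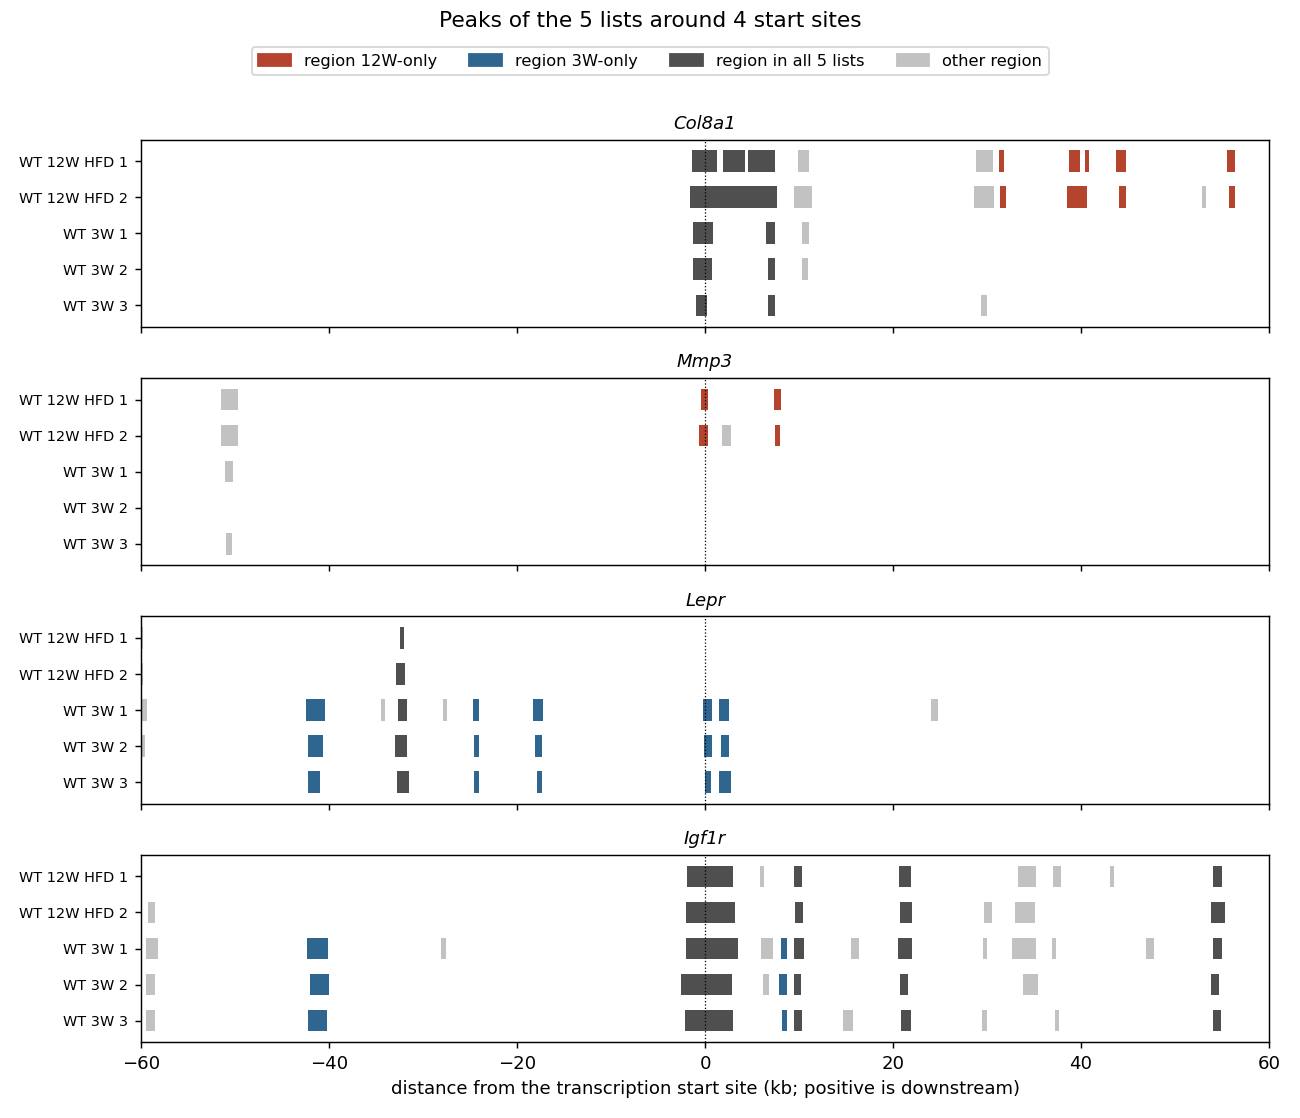
Peaks of the 5 lists within 60 kb of the start sites of Col8a1, Mmp3, Lepr and Igf1r, by distance in kb along the gene's strand, with WT 12W HFD lists above WT 3W lists and colour for the set of the region. Col8a1 and Mmp3 carry 12W-only regions, which for Mmp3 include the start site, and Lepr and Igf1r carry 3W-only regions, while the start sites of Col8a1 and Igf1r are open in all 5 lists.

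Of the 95 such genes with higher RNA, the largest changes were in Cd53, Bcl2a1b, Laptm5, Cyth4 and C5ar1, named here after their values were seen, and all known from leukocytes. Cd53 averaged 114 ± 43 TPM in WT 12W HFD libraries and 0.78 ± 0.86 TPM in WT 3W libraries (SD, n = 5 and 7). Laptm5, a lysosomal protein of blood cells, had 131.49, 68.91, 75.41, 178.04 and 48.58 TPM in WT 12W HFD libraries, against 0.16 to 4.04 TPM (median 1.18) in WT 3W libraries (log2 change 5.33 ± 0.42; limma adjusted p = 1.8e-10). C5ar1 and C3ar1, the receptors of complement fragments C5a and C3a, had 25.89 to 76.26 and 20.3 to 81.08 TPM in WT 12W HFD libraries, against 0.04 to 1.41 and 0 to 1.19 TPM in WT 3W libraries. None of these 3 overlapped between groups. Blnk, an adapter of B cell receptor signalling that macrophages also express, had a 12W-only region at its promoter and RNA higher by 4.16 ± 0.44 on the log2 scale (limma adjusted p = 4.4e-08).

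The 10 largest RNA changes among genes with a 12W-only region under both ways of counting were in Ccl8, Fyb, Cyp4b1, Tnip3, Nrros, Col8a1, Arhgap25, Lair1, Kcnn4 and Blnk.

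Macrophage markers moved with this group. Of 20 markers, 19 were higher in WT 12W HFD RNA and 0 lower, beside 7.94% and 6.23% of all genes tested. Their summed level was 3664 to 8098 TPM in WT 12W HFD libraries against 65.9 to 150.9 TPM in WT 3W libraries. None of the 20 was at 0 in all WT 3W libraries. In chromatin, 14 of the 20 have a start site in the table, and 4 and 9 of these promoters were open in the WT 12W HFD lists against 3 in each WT 3W list. WT 12W HFD replicate 2 thus had more open macrophage promoters than replicate 1. Of the 14, Ptprc, Laptm5 and Fcgr3 were linked to a 12W-only region, beside 20.5% of all genes. Ptprc (CD45), the general leukocyte marker, had 40.63, 46.35, 51.31, 38.41 and 18.09 TPM in WT 12W HFD libraries, against 0 to 1 TPM (median 0.65) in WT 3W libraries. Of 12 lymphocyte markers tested, 11 were higher, beside the same 7.94%. Their summed level was 33 to 282 TPM in WT 12W HFD libraries and 2.08 to 8.18 TPM in WT 3W libraries. Members listed at 0 in every WT 3W library included Cd3d, Cd3g, Klrb1c, Trbc1 and Gzma. The part of these markers in the region counts and in the RNA shares above was not tested.

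Inflammatory mediators had the largest count of 12W-only regions among the 29 gene lists examined, but the lists differ in size. Committed preadipocyte genes, for example, had 12 such regions over 10 genes with a start site, and 5 of these 10 were linked. Of 23 chemokines, cytokines and NF-kB genes with a start site, 13 were linked to 12W-only regions (25 regions) and 0 to 3W-only ones, beside 20.5% and 1.96% of all genes. RNA was higher for 13 and lower for 1 of 29 tested, beside 7.94% and 6.23% of all genes tested, with a median log2 change of 0.88. Ccl8, a chemokine for monocytes, had 3 12W-only regions 16 to 21.5 kb from its start site, and 540.49, 286.78, 253.86, 118.38 and 150.83 TPM in WT 12W HFD libraries, against 0.8 to 11.26 TPM (median 7.13) in WT 3W libraries (log2 change 5.33 ± 0.58; limma adjusted p = 7.7e-08). The strongest Ccl8 region had the authors' fold of 9.51 and 8.43 in the WT 12W HFD lists. Its fold was 9.81 in KO 3W 1 and 12.6 and 11.1 in the WT 1W HFD lists. Another of the 3 had peaks in both KO 3W and both WT 1W HFD lists, and the last in none of them. Cxcl9, an interferon-induced chemokine for T cells, had its region at the promoter (chr5:92327541-92328396). Its RNA was 92.62, 9.05, 3.76, 4.64 and 5.97 TPM in WT 12W HFD libraries, against 0 to 2.94 TPM (median 0.62) in WT 3W libraries, so that replicate 1 lay far above the rest (log2 change 2.70 ± 0.55; limma adjusted p = 8e-04). Cxcl2, a neutrophil chemokine, had 37.79 to 224.63 TPM in WT 12W HFD libraries against 0.79 to 13.99 TPM in WT 3W libraries. Its 12W-only region had the authors' fold of 4.92 and 5.39 in the WT 12W HFD lists. Peaks overlapping it had a fold of 35.6 in KO 3W 2 and of 37.7 and 47.3 in the WT 1W HFD lists. Among interferon response genes 2 of 17 were linked to 12W-only regions, beside the same 20.5% of all genes. Oas1a, an antiviral enzyme, was open at its promoter and higher by 3.50 ± 0.58 on the log2 scale (limma adjusted p = 5.3e-05). Complement genes were linked to 12W-only regions in 3 of 9 cases, beside the same 20.5%. In RNA 10 of 15 complement genes were higher and 1 lower, beside 7.94% and 6.23% of all genes tested.

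Matrix genes carried both shared and 12W-only regions. Of 17 matrix enzymes with a start site 6 were linked to 12W-only regions, beside 20.5% of all genes, and 7 of 28 were higher and 4 lower in RNA, beside 7.94% and 6.23% of all genes tested. Adamts12 and Adamts1, proteases with thrombospondin repeats, had 2 and 1 12W-only regions and RNA that fell by 1.11 and 1.03 on the log2 scale (limma adjusted p = 0.0053 and 0.036). Mmp3 (stromelysin, a protease that cuts matrix proteins) had a 12W-only region at its promoter (chr9:7445170-7446125), the window printed above, and another 7.69 kb away. The promoter region had the authors' fold of 6.23 and 6.09 in the WT 12W HFD lists and a peak in 1 KO 3W list. Mmp3 RNA was 918.1, 147.64, 275.64, 215.35 and 476.81 TPM in WT 12W HFD libraries, against 25.43 to 94.83 TPM (median 48.97) in WT 3W libraries, with no overlap (log2 change 2.73 ± 0.53; limma adjusted p = 4.1e-04). Of 22 collagens and structural matrix genes 9 were linked to 12W-only regions (16 regions), beside the same 20.5%. RNA was higher for 5 and lower for 8 of 31, beside the same 7.94% and 6.23%. Tnc (tenascin C) had 4 such regions and RNA higher by 1.96 ± 0.54, although WT 12W HFD replicate 4 lay below the highest WT 3W library, and Fbln2 had 1 and RNA higher by 1.52 ± 0.29 (log2 scale; limma adjusted p = 0.012 and 3.9e-04). Col3a1 had 1 and a log2 change of -1.16 ± 0.30 (limma adjusted p = 0.0071). Of 20 TGF-beta response genes tested 1 was higher and 6 were lower, beside 7.94% and 6.23% of all genes tested. Of 13 with a start site, 4 were linked to 12W-only regions, beside the same 20.5%. Ltbp1, a latent TGF-beta binding protein with 3 such regions, fell by 0.53 on the log2 scale (limma adjusted p = 0.04). Ltbp2, of the same family, was higher by 2.33 ± 0.41 (limma adjusted p = 1.2e-04), while Tgfbr1 and Tgfbr2, the receptors, had 12W-only regions and did not pass the test.

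Adipogenic transcription factors had 12W-only regions without a rise in RNA. Of 15 with a start site 8 were linked to 12W-only regions (12 regions), beside 20.5% of all genes, and 0 of 19 were higher (1 at an unadjusted p below 0.05) and 5 lower in RNA by limma, beside 7.94% and 6.23% of all genes tested. Pparg, the master regulator of adipocyte formation, had 5 such regions 4.56 to 28 kb from a start site. Its RNA was 47.81, 21.87, 33.2, 55.36 and 46.57 TPM in WT 12W HFD libraries, against 10.47 to 80.51 TPM (median 29.27) in WT 3W libraries, and the groups overlapped (log2 change 0.45 ± 0.41; limma adjusted p = 0.55). Cd36, a fatty acid transporter of preadipocytes, adipocytes and macrophages, had 3 12W-only regions, 1 at its promoter, and 902.89, 211.22, 519.02, 883.06 and 461.17 TPM in WT 12W HFD libraries, against 18.99 to 128.16 TPM (median 91.67) in WT 3W libraries (log2 change 3.01 ± 0.50; limma adjusted p = 5.8e-05). Plin2, a coat protein of lipid droplets, was higher by 2.00 ± 0.24 with a 12W-only region 15 kb away (limma adjusted p = 3.7e-07). Bmper, a BMP-binding protein and marker of committed preadipocytes, was higher by 2.02 ± 0.33 with 2 regions (limma adjusted p = 4.7e-05). Of 14 genes of the Dpp4-type interstitial progenitors 7 were linked to 12W-only regions (13 regions, beside the same 20.5%). In RNA 3 of 18 were higher and 0 lower, beside the same 7.94% and 6.23%. Dpp4 itself had 22.76 to 51.28 TPM in WT 12W HFD libraries and 7.32 to 54.62 TPM in WT 3W libraries, where replicate 1 was the highest of all (log2 change 1.37 ± 0.39; limma adjusted p = 0.015). Ankrd1, a target of the Hippo pathway's YAP and TAZ, was open at its promoter and higher by 2.01 ± 0.33 (limma adjusted p = 4.1e-05), at 0.65 to 9.18 TPM in WT 12W HFD libraries and 0 to 1.47 TPM in WT 3W libraries.

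**Figure D5:**
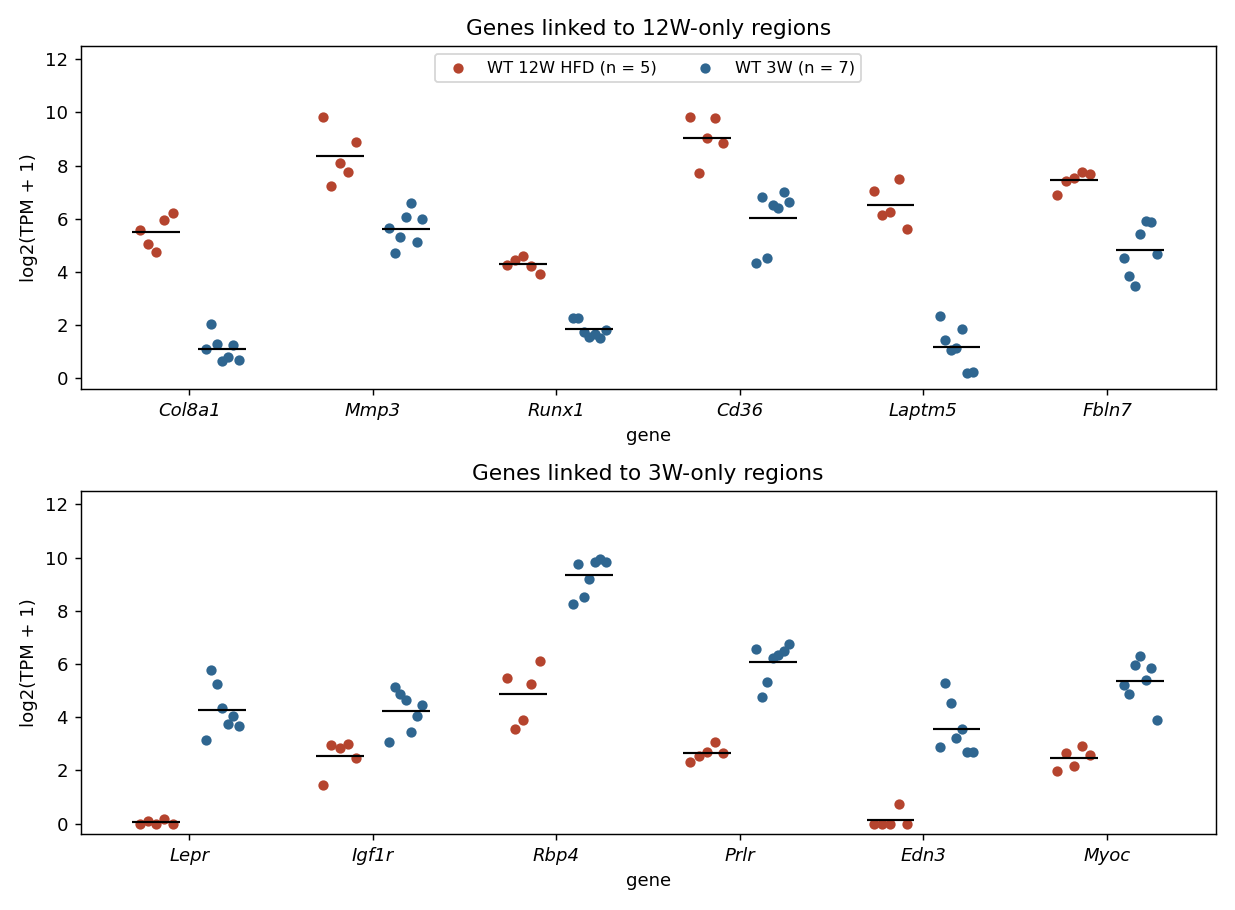
RNA levels as log2(TPM + 1) per library for 6 genes linked to 12W-only regions (upper panel) and 6 linked to 3W-only regions (lower panel); points are libraries (WT 12W HFD n = 5, left; WT 3W n = 7, right) and lines are means. All 12 are genes called by limma and picked for this figure. The groups do not overlap in any of them, which the choice of genes favours.

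The strongest 3W-only regions by rank lay near Igf1r, Lepr and Lpar1, followed by Kctd8, Leprot, Fgf12, Gpr4, Mknk1, Nomo1, Btbd6, Lnp1 and Olfm1. Of these 12 genes Igf1r and Lepr were lower in WT 12W HFD RNA, 8 were tested and did not pass, and Kctd8 and Lnp1 were too low to be tested. The regions linked to Nomo1 and Btbd6 lie inside Abcc6 and Brf1, whose start sites are not in the table, so the link is to the nearest listed gene.

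Lepr, the leptin receptor, through which fat signals energy stores, had open chromatin at its promoter in the WT 3W lists that both WT 12W HFD lists lacked. It had 4 3W-only regions, 2 at the promoter (chr4:101717174-101718150 and chr4:101718838-101720215) and 2 about 17.8 and 24.4 kb from the start site. The stronger promoter region had the authors' fold of 20.5, 11.9 and 14.1 in the WT 3W lists and 14.2 and 9.62 in the KO 3W lists, and no peak in either WT 1W HFD list or either WT 12W HFD list. Lepr RNA was 0, 0.07, 0, 0.14 and 0 TPM in WT 12W HFD libraries, against 7.77 to 54.3 TPM (median 15.64) in WT 3W libraries. Every WT 12W HFD library was near 0 (log2 change -4.22 ± 0.55; limma adjusted p = 1.4e-06). Another 3W-only region, chr4:101674968-101677011, lay nearest to Leprot, a neighbouring gene. Leprot RNA was 208.13 to 241.78 TPM in WT 12W HFD libraries and 160.99 to 248.44 TPM in WT 3W libraries, and the groups overlapped (log2 change 0.22 ± 0.11; limma adjusted p = 0.23).

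Igf1r, the receptor of the insulin-like growth factors, had the 3W-only region that came first by rank (chr7:67909929-67912224), 41.2 kb from its start site, and another 8.29 kb away. The first had the authors' fold of 21.2, 13.7 and 19.5 in the WT 3W lists, 17.2 and 20.2 in the KO 3W lists and 10 and 7 in the WT 1W HFD lists. Igf1r RNA was 1.76, 6.67, 6.23, 7.01 and 4.47 TPM in WT 12W HFD libraries, against 7.33 to 33.86 TPM (median 20.97) in WT 3W libraries, without overlap (log2 change -1.69 ± 0.37; limma adjusted p = 0.0015). Over the IGF axis 2 of 12 genes were linked to 3W-only regions (Igf1r and Pappa2) beside 1.96% of all genes. In RNA 6 of 13 were lower and 0 higher (limma, also 0 higher at an unadjusted p below 0.05), beside 6.23% and 7.94% of all genes tested. Pappa2, a protease that frees IGF from its binding proteins, was listed at 0 to 0.06 TPM in WT 12W HFD libraries against 0.33 to 6.79 TPM in WT 3W libraries (log2 change -1.92 ± 0.44; limma adjusted p = 0.0027).

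Of the genes linked to 3W-only regions that both ways of counting kept, 35 were lower in WT 12W HFD RNA, and the 10 largest changes included further hormone and signalling genes. Rbp4, the plasma carrier of retinol, had a region inside the gene (chr19:38120026-38121262) and RNA of 42.94, 10.67, 13.82, 37.2 and 69 TPM in WT 12W HFD libraries, against 301.74 to 980.87 TPM (median 868.09) in WT 3W libraries (log2 change -4.48 ± 0.48; limma adjusted p = 5.7e-08). Prlr, the prolactin receptor, had 3.94, 4.8, 5.44, 7.47 and 5.26 TPM in WT 12W HFD libraries, against 26.17 to 106.14 TPM (median 78.97) in WT 3W libraries (log2 change -3.41 ± 0.35; limma adjusted p = 2.5e-08). Iyd, an enzyme that recovers iodide from iodotyrosines, was listed at 0 in all 5 WT 12W HFD libraries and at 3.98 to 41.36 TPM in WT 3W libraries. In each of these 3 genes the groups did not overlap.

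Besides Lepr, 4 of these 10 genes had the 3W-only region at a promoter: Edn3, Nlgn1, Myoc and Mrap2. The remaining 2, Wfikkn2 and Spock2, fell by 2.83 and 2.64 on the log2 scale. Edn3, a vasoactive peptide of the endothelin family, had 0, 0, 0, 0.67 and 0 TPM in WT 12W HFD libraries, against 5.46 to 38.14 TPM (median 8.41) in WT 3W libraries. Nlgn1, an adhesion protein known from synapses whose other listed start site was open in all 5 lists, had 0, 0.17, 0.55, 0.09 and 0.37 TPM in WT 12W HFD libraries, against 0.81 to 29.2 TPM (median 9.34) in WT 3W libraries. Myoc, a secreted protein known from the eye, had 2.94, 5.27, 3.53, 6.6 and 5.04 TPM in WT 12W HFD libraries, against 13.96 to 78.37 TPM (median 41.13) in WT 3W libraries. Log2 changes were -3.41 ± 0.51 for Edn3, -2.92 ± 0.50 for Nlgn1 and -2.89 ± 0.42 for Myoc (limma adjusted p = 1.2e-05, 9.9e-05 and 8.5e-06), and these 3 did not overlap between groups. Mrap2, an accessory protein of melanocortin receptors, had 0 to 0.58 TPM in WT 12W HFD libraries against 0 to 28.46 TPM in WT 3W libraries; WT 3W replicate 1 was at 0, and the groups overlapped (log2 change -2.83 ± 0.94; limma adjusted p = 0.041). Twist2, a repressor of differentiation, had a 3W-only region 6.43 kb away and a log2 change of -1.72 ± 0.21 (limma adjusted p = 5.2e-07). The region had the authors' fold of 4.70, 5.34 and 5.41 in the WT 3W lists. Peaks overlapping it had a fold of 55.9 in WT 1W HFD 1 and 3.8 in WT 1W HFD 2.

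The imprinted growth genes on the list examined changed in RNA with few regions of either set. The list leaves out other imprinted genes, among them Rian and Hymai, which had 2 3W-only regions each. Of 15 imprinted growth genes tested 11 were lower and 0 higher (limma, also 0 higher at an unadjusted p below 0.05), beside 6.23% lower and 7.94% higher of all genes, with a median log2 change of -2.58. Of 13 with a start site, 1 (Grb10) was linked to a 12W-only region and 1 (Gnas) to a 3W-only one, beside 20.5% and 1.96% of all genes. Grb10, an adapter that restrains insulin and IGF signalling, had a log2 change of -1.39 ± 0.24 (limma adjusted p = 1.1e-04). Of 18 visceral and positional transcription factors 0 were linked to a region of either set, beside the same 20.5% and 1.96% of all genes. Their open promoters numbered 17 in each WT 12W HFD list against 18, 17 and 17 in the WT 3W lists. In RNA 1 of 27 was higher and 6 were lower, beside the same 7.94% and 6.23%. Of 20 cell cycle genes with a start site 1 was linked to each set, beside the same 20.5% and 1.96% of all genes. All 20 promoters were open in every list. In RNA 0 of 26 passed the limma test, beside the same 7.94% higher and 6.23% lower of all genes tested. At an unadjusted p below 0.05 the count is 0 higher and 2 lower. Gas6, a ligand of the TAM receptors, had as many 3W-only regions as Lepr (4), and 162.43 to 285.62 TPM in WT 12W HFD libraries against 115.81 to 528.58 TPM in WT 3W libraries (log2 change -0.50 ± 0.28; limma adjusted p = 0.28).

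Tcf21 itself, whose lineage was sorted, had an open promoter in all lists. The region over its start site (chr10:22817622-22823543) and the next one (chr10:22811879-22816932) were in all 5 lists, and in both KO 3W lists too, so they do not check the KO label. A pair of 3W-only regions lay farther off on the other side, with peaks in all 3 WT 3W lists and neither WT 12W HFD list. In WT 3W replicate 1 their peaks ran from -24.3 to -22.65 kb and from -48.9 to -48.18 kb of the Tcf21 start site, and neither was linked to Tcf21 by the rule on nearest start sites. Tcf21 RNA was 13.46, 10.24, 5.86, 7.13 and 10.14 TPM in WT 12W HFD libraries, against 37.61 to 109.23 TPM (median 47.56) in WT 3W libraries, without overlap (log2 change -2.62 ± 0.35; limma adjusted p = 2.9e-06). Of the 14 lineage markers all 8 with a start site had an open promoter in every list. In RNA 2 of 14 were higher and 5 lower, beside 7.94% and 6.23% of all genes tested. The lower ones included Cd34, Col1a2 and Col1a1, with log2 changes of -0.98 ± 0.16, -1.61 ± 0.22 and -1.96 ± 0.44 (limma adjusted p = 3.3e-05, 4e-06 and 0.002). The groups overlapped for Col1a1 but not for Cd34 or Col1a2. Pdgfra, a receptor that marks these progenitors, had 121.63 to 183.67 TPM in WT 12W HFD libraries and 103.51 to 188.3 TPM in WT 3W libraries, and the groups overlapped. Endothelial markers were higher in 4 of 14 cases, beside 7.94% of all genes tested (summed 77.1 to 314 TPM in WT 12W HFD libraries, against 51.6 to 108 TPM in WT 3W libraries). Pericyte and smooth muscle markers were lower in 4 of 10, beside 6.23% (106 to 207 TPM in WT 12W HFD libraries, against 113 to 3065 TPM in WT 3W libraries). Of 9 mesothelial and 7 erythroid markers 0 passed the limma test, beside 7.94% higher and 6.23% lower of all genes tested. At an unadjusted p below 0.05 the counts were 1 and 0. Summed erythroid levels were 3615 to 41700 TPM in WT 12W HFD libraries and 1117 to 9489 TPM in WT 3W libraries.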

How the data were processed

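Peak lists of 9 ATAC-seq libraries and RNA levels of 29 libraries were used as deposited, on build mm10 per the submitters' processing notes. Those notes name Trim Galore 0.6, FastQC, STAR 2.5.3a, RSEM, Bowtie2 2.3 and MACS2 without roles. The deposited narrowPeak lists are per library and give the authors' peak score, fold enrichment ratio, −log10 p-value and −log10 q-value. The deposited RNA tables give the authors' TPM per gene. Neither holds read depth, so no counting interval can be given.

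Peaks of the 5 lists sharing at least 1 base were merged into regions, and regions were linked to RefSeq GRCm38.p6 start sites (32851 start sites, 27025 genes). The 3981 regions on chromosomes with no start site in that table were not linked, and genes outside it were not used here. Peak names begin with A or B, and sets were recomputed within A. RNA was fitted over all 29 libraries with limma 3.58.1 (R 4.3.3) on log2(TPM + 1), for genes at 1 TPM or more in at least 2 libraries, with Benjamini-Hochberg adjustment. A fold change on this scale understates the change of low genes. Python 3.11.15, numpy 2.4.6, pandas 2.3.3 and matplotlib 3.10.9 did the rest, and the scripts were tested on simulated data. Library values were compared by exact two-sided permutation tests.

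Genes were named by 4 rules: the first 12 regions of each set by the worse within-list rank, the 10 largest RNA changes in each direction among genes of regions kept under both ways of counting, up to 4 linked members per gene list, and Tcf21 with cell type markers. Other named genes were chosen after their values were seen. Genes said not to overlap between groups were all called by limma. The share of all tested genes without overlap is not given here. The members and lists were chosen with earlier results of these data known. Motifs at peak summits were planned, but were searched in RefSeq promoter windows of 300 bases because no genome was used here. Same-numbered RNA libraries did not deviate together (correlations 0.0329, 0.117, -0.102, 0.0976 and -0.0774), so numbers were not treated as pairs. Alternatives covered peak thresholds, overlap, list length, peak-name letter, link distance, RNA scaling, filter, pseudocount, a replicate block and leaving out each library. Restricting RNA shares to genes present in both groups, and using the KO 3W lists, were chosen after seeing the data.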

Additional observations from a re-analysis of the deposited data

Results flagged for a closer look

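RNA levels of 43 genes were examined in each group for 1 library far from the others on the log2(TPM + 1) scale, and 9 of 86 groups met that rule, whose critical values (Dixon's, at 95%) are set so that chance gives about 1 in 20; that rate was not measured here. In WT 12W HFD libraries, replicate 1 was far above the others for Cxcl9 (92.62 TPM) and Oas1a (106.13 TPM), both interferon-induced. Replicate 4 was above the others for Gas6 (285.62 TPM) and Edn3 (0.67 TPM, the others at 0), and replicate 5 below them for Ptprc (18.09 TPM). In WT 3W libraries, replicate 1 was below the others for Tnc (0.07 TPM) and Noct (0.2 TPM) and the only one above 0 for F7 (0.06 TPM), and replicate 2 was above the others for Ankrd1 (1.47 TPM).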

How the results depend on the processing

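No difference between groups changed sign under the alternatives run, but with A lists alone at equal list length 3W-only regions outnumbered 12W-only ones. With all peaks, 3W-only regions numbered 523 at a −log10 q of at least 5 and 12507 with A lists alone, and regions in all 5 lists numbered 20020 where peaks had to cover at least 0.5 of a region. At equal list length, 12W-only regions numbered 1331 with the 20000 strongest peaks, 7779 under the cover rule and 8480 with A lists, and 3W-only regions 1073, 1281 and 9960. Of the 12W-only regions, 6227 were also absent from both KO 3W lists. Leaving out 1 list in turn gave 13658 to 24463 12W-only and 1101 to 2282 3W-only regions with all peaks, 5609 to 9851 and 3271 to 3988 at equal length, and 38426 to 42490 in all remaining lists; with fewer lists the rule asks less of a region. Leaving out 1 list in turn, the differences between groups ranged from 18400 to 30610 peaks, 31.53 to 55.74 Mb and -6.079 to -3.837 percentage points at start sites; at a −log10 q of at least 5 they were 17700 peaks and -6.33 points, and at equal length 25.57 Mb and -0.5171 points. The share of genes with 12W-only regions that were higher was 19.01% at equal length, 22.2% within 10 kb, 55.56% at promoters, and 13.04% among genes present in both groups. The share of genes with 3W-only regions that were lower was 26% within 10 kb, 36.67% at promoters and 11.29% with A lists. With the replicate block, 1154 genes were higher and 902 lower, sharing 1062 and 770 calls with the fit without it, and the linked shares were 14.34% and 18.11%; the block rests on numbers that the data do not pair. Leaving out 1 RNA library gave 1037 to 1289 higher and 737 to 1086 lower genes. The cause of these shifts was not tested. Read depth is unknown, so a peak missing from a list may lie under its threshold.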
